A study of Homo sapiens with 4 samples.

Results

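The mitochondrial genome transcripts are the 37 genes on the mitochondrial chromosome (symbols starting MT-), of 58735 genes in the deposited tables. They are 13 protein-coding genes, 2 ribosomal RNAs and 22 transfer RNAs, taken by chromosome and symbol in the GENCODE 29 annotation of GRCh38. That rule uses no measured value, but it was set with earlier results of these data known. RNA was sequenced from MOLM13, a human acute myeloid leukaemia line driven by the MLL::AF9 fusion. Cultures were taken after 12 h in one of 4 conditions: the vehicle DMSO, SD70, MI-503, or SD70 with MI-503. SD70 is known as a KDM4C (histone demethylase) inhibitor, and MI-503 keeps menin from binding MLL. The series set out to ask how the agents act jointly. All 4 groups are the same line and carry the fusion, each group is 1 library, and doses and the number of cultures are not given in the sources used here.

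Mitochondrial DNA is transcribed from promoters in its non-coding region into long RNAs that run over most of the circle on each strand. Enzymes cut the tRNAs out of these precursors, which frees the mRNAs and rRNAs between them, and the level of each mature RNA then depends on how fast it is made, cut and degraded. The mRNAs encode core subunits of respiratory complexes I, III and IV and of ATP synthase, the rRNAs build the mitochondrial ribosome, and the tRNAs read the mitochondrial code, while all factors that copy, cut and translate these RNAs are encoded in the nucleus.

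The genes lie on M from base 577 to base 16023, a span of 15447 bases, and 28 are read in the heavy-strand direction (plus in the reference) and 9 in the light-strand direction (minus). Of 36 neighbouring pairs, 20 abut with no base between them and 5 overlap. The strand setting of the libraries is not given in the sources used here, so reads from overlapping genes, or from an RNA and its opposite strand, cannot be told apart. The sequences that follow are tRNAs named below and the bases shared by MT-ATP8 and MT-ATP6. They come from GENCODE 29 on GRCh38 and are written 5′ to 3′ on the strand of the gene. MT-TL1, tRNA-Leu for UUR codons, is at chrM:3230-3304, plus strand, between the large rRNA and MT-ND1. Its capitals mark bases 8 to 20, 13 bases that hold the core of the site bound by the termination factor MTERF1.
MT-TL1: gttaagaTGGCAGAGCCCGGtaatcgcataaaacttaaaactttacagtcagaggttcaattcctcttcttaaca
The isoleucine, glutamine and methionine tRNAs stand in a row between MT-ND1 and MT-ND2, with MT-TI at chrM:4263-4331 (plus), MT-TQ at chrM:4329-4400 (minus) and MT-TM at chrM:4402-4469 (plus). Capitals mark the 3 bases that MT-TI and MT-TQ share on opposite strands, and MT-TM has none.
MT-TI: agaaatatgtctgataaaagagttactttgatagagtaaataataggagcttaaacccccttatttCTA
MT-TQ: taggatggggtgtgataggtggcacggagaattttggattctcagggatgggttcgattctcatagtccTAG
MT-TM: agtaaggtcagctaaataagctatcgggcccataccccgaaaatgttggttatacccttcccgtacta
The glutamate tRNA MT-TE at chrM:14674-14742 (minus) and the threonine tRNA MT-TT at chrM:15888-15953 (plus) flank MT-CYB, and the proline tRNA MT-TP at chrM:15956-16023 (minus) is the last gene before the non-coding region. None of these overlaps a neighbour, so they have no capitals.
MT-TE: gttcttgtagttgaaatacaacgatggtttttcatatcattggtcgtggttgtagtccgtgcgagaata
MT-TT: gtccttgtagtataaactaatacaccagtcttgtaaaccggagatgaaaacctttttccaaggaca
MT-TP: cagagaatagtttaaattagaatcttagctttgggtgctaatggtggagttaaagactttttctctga
The asparagine, cysteine and tyrosine tRNAs MT-TN at chrM:5657-5729, MT-TC at chrM:5761-5826 and MT-TY at chrM:5826-5891 are all on the minus strand, beside the light-strand replication origin, which lies in the 31 bases between MT-TN and MT-TC. The capital in MT-TC and in MT-TY is the 1 base they share.
MT-TN: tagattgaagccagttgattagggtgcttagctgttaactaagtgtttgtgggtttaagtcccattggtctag
MT-TC: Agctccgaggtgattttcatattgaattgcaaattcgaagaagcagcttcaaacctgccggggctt
MT-TY: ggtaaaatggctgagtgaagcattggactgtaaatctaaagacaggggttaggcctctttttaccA
The ATP synthase genes MT-ATP8 and MT-ATP6 share 46 bases at chrM:8527-8572 (plus), read in different frames, all in capitals.
Shared bases: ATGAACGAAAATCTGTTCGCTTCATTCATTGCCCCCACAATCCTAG

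The libraries held 15550915 (DMSO), 14695753 (SD70), 15937390 (MI-503) and 15093444 (combination) reads recovered from the deposited values, and values below are given in that order. Levels are FPKM, which divides the fragments of a gene by its length and by the size of the library. The 9 myeloid markers summed to 5302, 3330, 6419 and 4250 FPKM, lower in both libraries with SD70, and most of that sum was the granule proteases PRTN3 and ELANE. Of the 8 that were tested, 3 were at least 1.5-fold lower and 2 higher in SD70 against DMSO, and 3 lower and 0 higher in the combination against MI-503; the part of this shift in the results was not tested. CD33 stood at 25.2, 27.2, 29 and 27.5 FPKM, and ANPEP, below the minimum for testing, between 0.0951 and 0.425 FPKM. The T cell marker CD3E, the erythroid marker HBB and the epithelial marker EPCAM were listed at 0 in each library. The summed level of 5 markers was 0.499 to 1.31 FPKM for T cells, 0.927 to 1.87 for B cells, 0 to 0.0606 for erythroid cells, 1.04 to 2.72 for epithelial cells and 0.0326 to 0.250 for fibroblasts. The endothelial sum of 11.9, 27.7, 16.4 and 26.2 FPKM was nearly all PECAM1, which monocytes also carry. That sum was higher in both SD70 libraries, and its part in the results was not tested.

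Mitochondrial transcripts took 7.70% of the reads in DMSO (95% Clopper-Pearson interval 7.69 to 7.72), 8.42% in SD70, 8.31% in MI-503 and 8.47% in the combination. The 3 treated libraries were thus above the vehicle by less than 1 percentage point, and by FPKM, which weights short genes more, the share was 26.6%, 27.3%, 27.6% and 27.2%. MT-CO1 was the gene with the highest FPKM in every library, and 15, 15, 14 and 14 of the 20 genes with the highest FPKM were mitochondrial. In bulk RNA, fewer cells and less RNA per cell cannot be told apart. The intervals cover counting error in single libraries, not the spread between cultures, and PCR copies that carry no molecular identifier are not separate molecules.

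**Figure D1:**
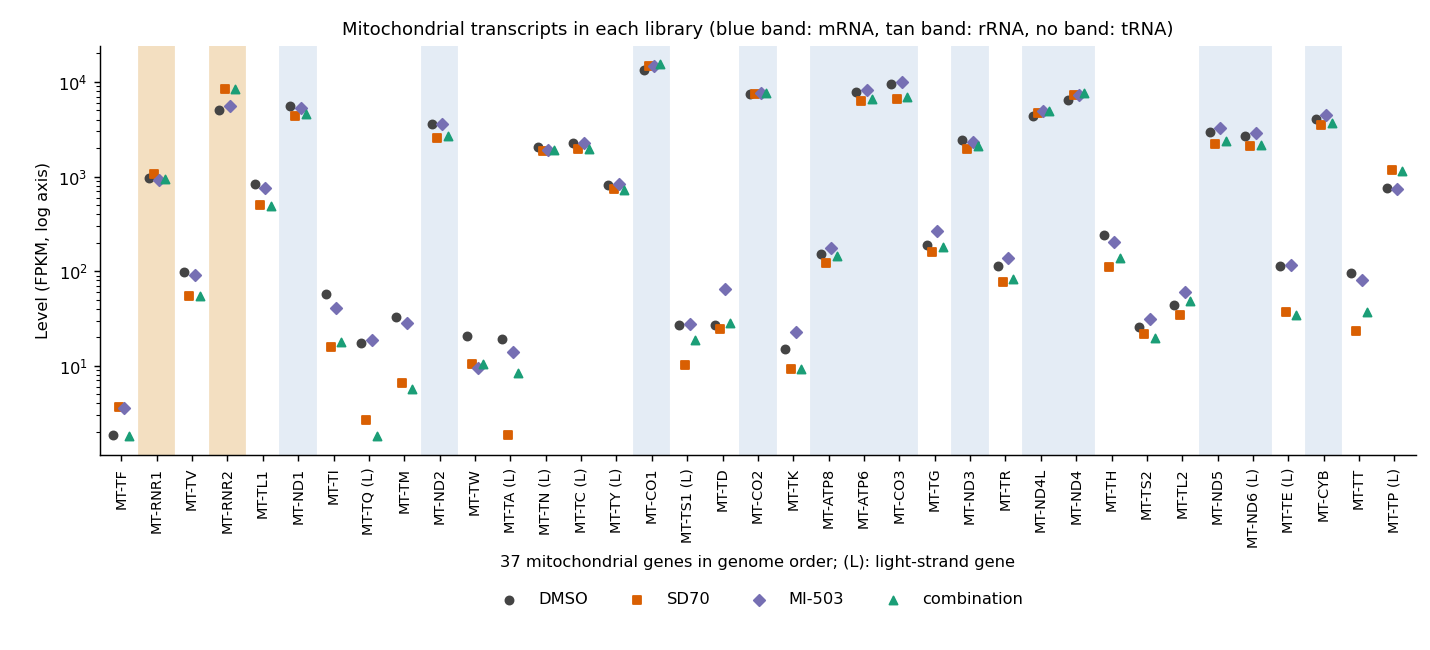
Level of each of the 37 mitochondrial genes (FPKM, log axis) in genome order, with 1 point per library. MT-RNR2 was at 8467 and 8391 FPKM in the libraries with SD70 against 5034 and 5507 without it, while MT-CO3 and many tRNAs were lower with SD70.

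The total hardly moved, but its composition differed between libraries with and without SD70. rRNA made up 11.1%, 17.8%, 11.2% and 16.9% of the mitochondrial reads, mRNA 88.2%, 81.6%, 88.2% and 82.5%, and tRNA 0.688%, 0.590%, 0.630% and 0.578%. The rRNA share was thus higher, and the mRNA and tRNA shares lower, in both libraries with SD70. Measured against all reads of the library, the mRNAs took 6.80%, 6.87%, 7.33% and 6.99%. That share was 6.87% with SD70 and 6.80% in DMSO although most single mRNAs were lower, and the reads of MT-CO1 went from 310677 to 353490 and those of MT-ND4 from 134281 to 153318. The deposited FPKM carry median-of-ratios scaling, and with libraries set to the same read total the median log2 difference of the 13 mRNAs in SD70 against DMSO was -0.19 in place of -0.30. With libraries set to the same nuclear read total, the median over all genes in SD70 against DMSO moved by 0.10 on the log2 scale, from -0.07 to 0.03. It moved by 0.016 in MI-503 against DMSO and by 0.073 in the combination against DMSO. Each difference from DMSO below is to be read against the shift of its own pair.

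Between pairs of libraries a gene was counted as different where the fold on log2(FPKM + 1) was at least 1.5. In SD70 against DMSO, 3 of the 37 genes were higher and 12 lower, where 14.6% of the 12296 genes tested were higher and 18.8% lower (33.4% either way). In the combination against MI-503, which differ by SD70 and share no library with the first pair, 2 were higher and 13 lower, against a background of 7.59% and 9.21% (16.8% either way). In the combination against DMSO 2 were higher and 11 lower (background 13% and 14.9%, 27.9% either way). No mRNA passed 1.5-fold in any of the 5 comparisons, and the genes that did were MT-RNR2 and tRNAs.

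The large rRNA MT-RNR2, the RNA core of the large subunit of the mitochondrial ribosome, was at 5034, 8467, 5507 and 8391 FPKM. Both libraries with SD70 lay above both without it, by 1.68-fold in SD70 against DMSO (interval 1.67 to 1.69) and 1.52-fold in the combination against MI-503 (1.51 to 1.53). The small rRNA MT-RNR1, which forms the small subunit and is made from the same promoter, was at 972, 1069, 930 and 947 FPKM, and its groups overlapped. Its ratios were 1.10 (1.08 to 1.13) and 1.02 (0.995 to 1.04). The ratio of MT-RNR2 to MT-RNR1 within a library does not depend on how libraries were scaled, and was 5.18, 7.92, 5.92 and 8.86. It was 1.53 times (1.49 to 1.57) as high in SD70 as in DMSO and 1.5 times (1.46 to 1.53) as high in the combination as in MI-503. MT-RNR2 against its downstream neighbour MT-ND1, beyond MT-TL1, showed a wider gap, with ratios of 0.913, 1.95, 1.05 and 1.85. The level of the large rRNA thus passed from about that of MT-ND1 to well above it in both libraries with SD70. The kit is not given in the sources used here, and rRNA capture or removal may differ between libraries. Its part in these ratios was not tested.

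**Figure D2:**
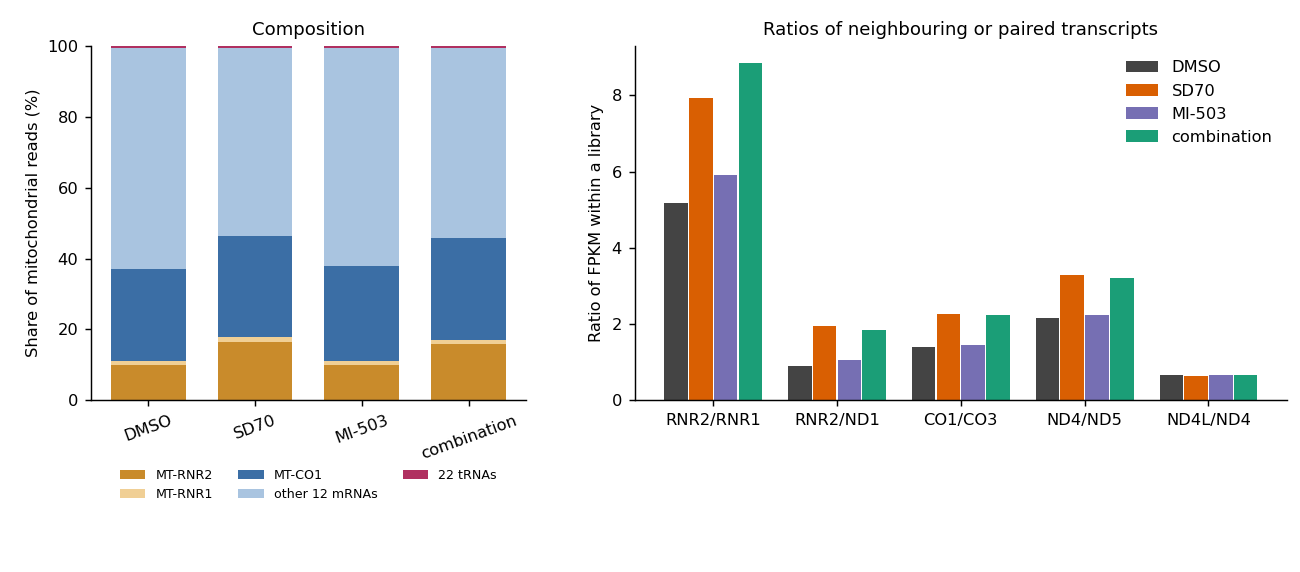
Left, share of mitochondrial reads in each library taken by MT-RNR2, MT-RNR1, MT-CO1, the other 12 mRNAs and the 22 tRNAs (percent). Right, ratio of FPKM of paired transcripts within each library, with MT-RNR2 to MT-RNR1 at 7.92 and 8.86 in the libraries with SD70 and 5.18 and 5.92 in those without, and MT-ND4L to MT-ND4 between 0.651 and 0.678.

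Among the 13 mRNAs, 10 were lower and 3 higher in both pairs that differ by SD70. Their log2 differences ran from -0.53 to 0.16 in SD70 against DMSO (median -0.30, all genes -0.07) and from -0.54 to 0.07 in the combination against MI-503 (median -0.28, all genes -0.04). MT-CO2 was the smallest of the 10 differences. It was higher in both pairs when libraries were set to the same read total or nuclear read total. The 16 nuclear genes that averaged 1000 FPKM or more had medians of 0.22 and 0.19 in the same pairs. Their differences ran from -0.95 to 1.13 and from -0.75 to 0.61. Over the 15 mRNAs and rRNAs the largest gap between the pairs was 0.17 on the log2 scale, and Pearson's r across these 15 genes was 0.97 (Spearman's rho 0.94), a description of genes that share libraries and precursors. Across the 22 tRNAs r was 0.63 (rho 0.53), and across the 14 of the heavy strand 0.50 (0.24). Across all genes tested r was 0.69 (rho 0.77).

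The subunits of cytochrome c oxidase, complex IV, which passes electrons to oxygen, split 3 ways. MT-CO3 was at 9507, 6571, 10006 and 6865 FPKM, and both libraries with SD70 were lower than both without. Its ratios were 0.691 (0.685 to 0.697) and 0.686 (0.680 to 0.692), the lowest of any mRNA in both pairs. MT-CO1, the catalytic subunit, was at 13334, 14818, 14656 and 15419 FPKM, with ratios of 1.11 and 1.05, and the vehicle was the lowest library. MT-CO2, which takes electrons from cytochrome c, was at 7471, 7395, 7669 and 7570 FPKM, with ratios of 0.990 and 0.987. MT-CO1 to MT-CO3, subunits of one enzyme, therefore went from 1.40 and 1.46 without SD70 to 2.26 and 2.25 with it.

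The 7 complex I mRNAs, subunits of the membrane arm of NADH dehydrogenase, also fell into unlike groups. MT-ND2 was at 3601, 2581, 3613 and 2694 FPKM (ratios 0.717 and 0.745), and MT-ND5 at 2983, 2193, 3220 and 2356 FPKM (0.735 and 0.732). MT-ND1 was at 5512, 4336, 5261 and 4526 FPKM, with ratios of 0.787 and 0.860. In these 3 both libraries with SD70 were below both without. MT-ND3 was at 2436, 1975, 2315 and 2108 FPKM, which gives ratios of 0.811 and 0.911. It too was lower in both libraries with SD70 than in both without. MT-ND4 was at 6449, 7192, 7201 and 7560 FPKM (1.12 and 1.05), and MT-ND4L at 4342, 4679, 4883 and 4971 FPKM (1.08 and 1.02). These last are carried on 1 bicistronic mRNA, overlap by 7 bases, and moved together, with MT-ND4L to MT-ND4 at 0.673, 0.651, 0.678 and 0.658. MT-ND4 and MT-ND5, which lie next to each other apart from 3 tRNAs, did not: MT-ND4 to MT-ND5 was 2.16, 3.28, 2.24 and 3.21.

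The other bicistronic mRNA carries MT-ATP8 and MT-ATP6, subunits of the proton channel side of ATP synthase. MT-ATP6 was at 7760, 6287, 8252 and 6588 FPKM (ratios 0.810 and 0.798), and MT-ATP8 at 151, 121, 175 and 144 FPKM (0.801 and 0.821). Both were lower with SD70 in both pairs, by like ratios. MT-ATP6 stood 51.4, 52.0, 47.0 and 45.8 times above MT-ATP8 although they share a transcript. MT-ATP8 shares 22.2% of its length with MT-ATP6, and how reads in shared bases were counted is not given in the sources used here, so its level is uncertain. MT-ATP6 is followed by MT-CO3 with 1 shared base. MT-CYB, the cytochrome b of complex III, was at 4087, 3547, 4502 and 3653 FPKM (0.868 and 0.811), lower in both libraries with SD70.

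MT-ND6, a complex I subunit, is the only mRNA of the light strand, and was at 2667, 2087, 2910 and 2166 FPKM. Both libraries with SD70 were below both without, with ratios of 0.783 (0.767 to 0.799) and 0.744 (0.730 to 0.759). It lies beside MT-ND5 on the opposite strand, whose ratios were 0.735 and 0.732, so that the ratio of MT-ND6 to MT-ND5 was 1.06 and 1.02 times as high with SD70 as without. Reads over the only light-strand mRNA thus differed by about as much as those over its heavy-strand neighbour. The strand setting is not given, so heavy-strand RNA that covers MT-ND6 cannot be told apart from MT-ND6 mRNA. MT-ND6 took 2.0%, 1.68%, 2.04% and 1.67% of the mitochondrial mRNA reads.

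Along the heavy strand the differences followed no steady course. Spearman's rho between position and log2 difference over the 2 rRNAs and 12 heavy-strand mRNAs was -0.16 in SD70 against DMSO and -0.37 in the combination against MI-503. Over the 12 mRNAs alone it was 0.23 and -0.10, a change of sign in the first pair. Transcripts that were higher stood beside lower ones: MT-RNR2 before MT-ND1, MT-CO1 after MT-ND2, and MT-ND4 between MT-ND3 and MT-ND5. Base composition did not sort the 15 long transcripts either, with a rho between GC content and difference of -0.04 and -0.05.

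**Figure D3:**
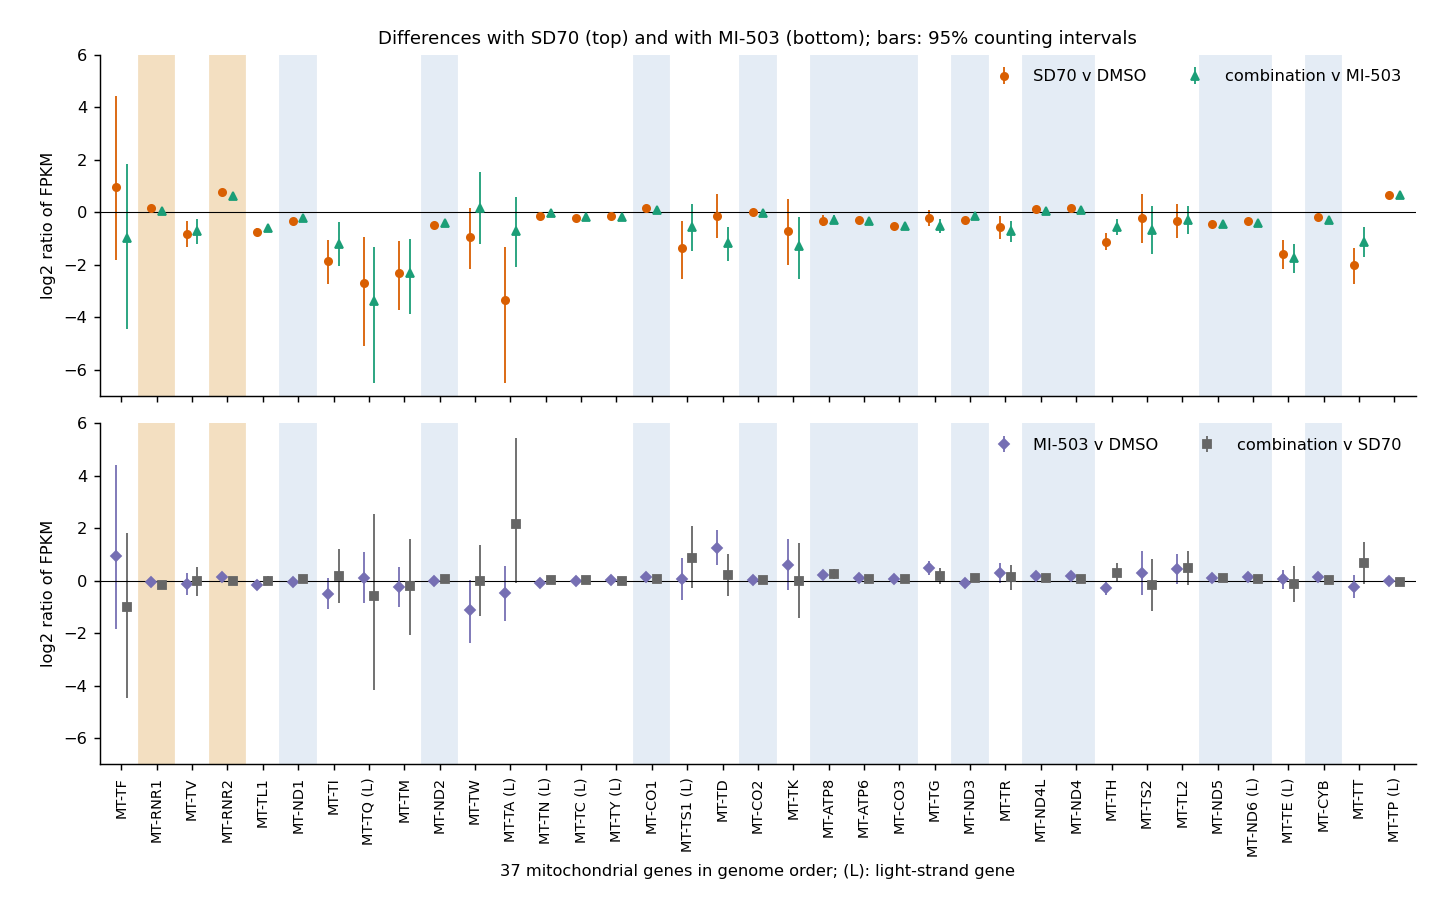
Log2 ratio of FPKM for each mitochondrial gene in genome order, with 95% counting intervals, for the pairs of libraries that differ by SD70 (top) and those that differ by MI-503 (bottom). With SD70, MT-RNR2 and MT-TP lie above 0 and MT-CO3, MT-ND2 and many tRNAs below 0 in both pairs.

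The tRNAs are 59 to 75 bases long, which is shorter than common sequencing fragments. Whether RNAs of that size were kept in the libraries is not given in the sources used here, so reads in tRNA genes may be mature tRNA or uncut precursor, and which of these they are was not tested. Of the 22, 16 had a mean of at least 20 reads. In SD70 against DMSO 12 of 22 were at least 1.5-fold lower and 2 higher, with a median log2 difference of -0.71, which was -0.45 for the 16 with at least 20 reads and -1.53 for the 6 with fewer. In the combination against MI-503 13 were lower and 1 higher, with a median of -0.66, and -0.59 and -0.97 in those subsets. With at least 20 reads the counts were 7 lower and 1 higher, and 8 lower and 1 higher, of 16. The difference went with depth, with a Spearman rho against mean reads of 0.45 and 0.51 over the 22 tRNAs. Of 234 nuclear genes under 100 bases, 27.8% were lower and 33.3% higher in SD70 against DMSO, with a median of 0. In the combination against MI-503 30.8% were lower and 33.8% higher. For a gene of 69 bases 1 read was 0.959 FPKM in DMSO, so the minimum of 1 FPKM lets in short genes with about 1 read. These nuclear genes were not matched to the tRNAs in depth, and the parts of length and depth in their shares were not tested. Pearson's r between the 2 pairs was 0.02 across them and 0.63 across the 22 tRNAs. In both pairs that differ by SD70, 9 tRNAs were at least 1.5-fold lower and 1, MT-TP, higher. Of all genes tested 7.43% were lower and 5.31% higher in both, and of the short nuclear genes 9.83% and 12.8%. Of the 9 tRNAs, MT-TQ, MT-TM, MT-TA and MT-TK had a mean under 20 reads, and MT-TV, MT-TL1, MT-TI, MT-TE and MT-TT had more.

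Lower tRNAs lay beside both higher and lower long transcripts. MT-TL1, between MT-RNR2 and MT-ND1, had 955, 576, 890 and 573 reads (843, 496, 760 and 494 FPKM), and both libraries with SD70 were below both without. Its ratios were 0.589 (0.530 to 0.654) and 0.650 (0.584 to 0.722), opposite in direction to the rRNA that it abuts. MT-TV, the valine tRNA between the rRNAs, had 102, 59, 97 and 58 reads, with ratios of 0.565 and 0.603. MT-TI, after MT-ND1, had 60, 17, 44 and 19 reads, with ratios of 0.277 (0.151 to 0.481) and 0.436 (0.240 to 0.762). MT-TQ and MT-TM follow it, with at most 21 and 34 reads in a library and at most 3 and 7 with SD70. At that depth the MT-TQ ratios had intervals of 0.0292 to 0.524 and 0.0109 to 0.393.

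At the other end of the coding region, MT-TE had 118, 40, 126 and 37 reads, with ratios of 0.331 (0.225 to 0.478) and 0.296 (0.200 to 0.431). MT-TT had 96, 24, 84 and 38 reads (0.244 and 0.457), and the histidine tRNA MT-TH, which follows MT-ND4, had 253, 119, 218 and 147 (0.459 and 0.680). In all 3 both libraries with SD70 held fewer reads than both without. The arginine tRNA MT-TR, before MT-ND4L, had 112, 77, 141 and 84 reads (0.671 and 0.601), and the glycine tRNA MT-TG, before MT-ND3, had 193, 169, 279 and 191 (0.855 and 0.691). MT-TS1, one of the serine tRNAs, had 28, 11, 30 and 20 reads (0.384 and 0.673). The serine tRNA MT-TS2 had 23, 20, 29 and 18 reads, and the leucine tRNA MT-TL2 47, 38, 66 and 53. For these last 2 the counting intervals of both pairs held 1, so no difference was detectable at this depth. The interval also held 1 for MT-TG in SD70 against DMSO and for MT-TS1 in the combination against MI-503. The aspartate tRNA MT-TD had 28, 26, 69 and 30 reads, high in MI-503 alone.

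Most light-strand tRNA reads came from 4 genes. MT-TN had 2280, 2100, 2192 and 2129 reads, MT-TC 2250, 1987, 2327 and 2000, and MT-TY 815, 760, 857 and 743. Their ratios lay between 0.863 and 0.980 in the pairs that differ by SD70. MT-TP had 770, 1238, 782 and 1206 reads (749, 1177, 737 and 1147 FPKM), with ratios of 1.57 (1.43 to 1.72) and 1.56 (1.42 to 1.71), and both libraries with SD70 lay above both without. MT-TP and MT-TT are separated by 2 bases and differed in opposite directions. These 4 light-strand tRNAs together held 6115, 6085, 6158 and 6078 reads, that is 97.1%, 99.1%, 97.0% and 98.9% of the light-strand tRNA reads. The remaining 4 (MT-TQ, MT-TA, MT-TS1 and MT-TE) held 185, 56, 192 and 68, with ratios of 0.296 (0.215 to 0.401) and 0.357 (0.267 to 0.474). The 14 heavy-strand tRNAs held 1942, 1157, 1986 and 1240 reads, with ratios of 0.582 (0.541 to 0.626) and 0.630 (0.587 to 0.677). MT-TL1 gave a large part of these, and without it the ratios were 0.575 and 0.614. The 6 tRNAs with a mean under 20 reads (MT-TF, MT-TQ, MT-TM, MT-TW, MT-TA and MT-TK) held 112, 37, 105 and 40 reads in all.

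The mitochondrial transcripts with MI-503 alone were close to those with the vehicle. In MI-503 against DMSO 2 of the 37 genes were at least 1.5-fold higher and 1 lower, with a background of 4.37% and 2.55% (6.91% either way), and in the combination against SD70 3 were higher and 1 lower, with a background of 2.53% and 2.23% (4.76% either way). None passed in the same direction in both of these pairs, which share no library, where 0.561% of all genes were higher and 0.415% lower in both. The 13 mRNAs had median log2 differences of 0.11 and 0.06, beside -0.03 and 0.01 for all genes, and 11 of the 13 were higher in both. With at least 20 reads, MT-TD passed in MI-503 against DMSO, at 2.39-fold (1.52 to 3.84), and was at 1.15-fold (0.660 to 2.03) in the combination against SD70. In the combination against SD70, MT-TS1 at 1.82-fold (0.831 to 4.20) and MT-TT at 1.58-fold (0.926 to 2.76) passed, and both intervals held 1. The 16 nuclear genes that averaged 1000 FPKM or more had medians of 0.17 and 0.09 in the same pairs. The combination departed from the product of the single-agent folds by -0.14 to 0.17 on the log2 scale for the mRNAs and rRNAs, and by up to 2.15 for tRNAs with few reads (MT-TA).

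A model over all 4 libraries, with a term for each agent (limma with a mean-variance trend, 1 residual degree of freedom, adjustment over 12296 genes), set the 2 libraries with SD70 against the 2 without. For the SD70 term 2 of the 37 genes rose and 19 fell, with 7.86% of all genes up and 14.7% down (22.5% in all). MT-RNR2 rose by 0.68 on the log2 scale (SE 0.05; limma adjusted p = 0.0207) and MT-TP by 0.64 (SE 0.06; limma adjusted p = 0.0224). Of the 13 mRNAs 7 fell: MT-CO3, by 0.54 (SE 0.03; limma adjusted p = 0.0207), MT-ND2, MT-ND5, MT-ND6, MT-ATP6, MT-ND1 and MT-CYB. Of the 22 tRNAs 12 fell, among them MT-TM, MT-TE, MT-TI, MT-TT, MT-TL1 and MT-TV. This fit does not use the number of reads behind a value, which was low for many tRNAs. The SE of MT-TM was 0.12 here and 0.63 with voom weights on the reads, which called 8 tRNAs and 23% of all genes lower. The remaining mRNAs and MT-RNR1 did not pass, with limma adjusted p = 0.0584 for MT-CO1, 0.0884 for MT-ND4 and 0.728 for MT-CO2. These calls depended on the variance model. Without the trend 0 of the 37 passed, and 0 of all genes. At an unadjusted p under 0.05 that fit had 19 of the 37 and 4769 of all 12296 genes. With no filter on low genes 0 of the 37 passed (0.242% of all genes). With voom weights on the reads 17 passed (37.7% of all genes), and with libraries set to the same nuclear total 11 (10.6%). Over these and a pseudocount of 0.1, the limma adjusted p of MT-RNR2 ran from 1.78e-08 to 1. For the MI-503 term limma called 0 of the 37 genes and 0 of all genes. At an unadjusted p under 0.05 it had 6 of the 37 and 401 of all 12296 genes. With voom 0 of the 37 and 8 of all genes were called.

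The nuclear genes that make, process and use these RNAs were mostly lower with SD70. The lists were chosen with earlier results of these data known. Of 195 listed genes 192 were tested. Of these, 45 were at least 1.5-fold lower in both pairs that differ by SD70 and 0 were higher in both, where 7.43% of all genes were lower and 5.31% higher in both. Their median log2 difference was -0.59 in SD70 against DMSO and -0.39 in the combination against MI-503, beside -0.30 and -0.28 for the 13 mitochondrial mRNAs and -0.07 and -0.04 for all genes. In the combination against MI-503 the lists for replication and packaging (-0.17) and for regulators of biogenesis (-0.27) had medians nearer to 0 than the mRNAs. The limma fit called 90 of the 192 lower and 0 higher for the SD70 term, against 14.7% of all genes lower. In the list counts that follow, the shares of all genes to read them against are 18.8% lower in SD70 against DMSO and 9.21% lower in the combination against MI-503. Of the genes named, POLRMT, TFAM, TFB2M, TEFM, MTERF1, LRPPRC, SLIRP and PNPT1 were named for their role, and the others because their difference with SD70 was among the largest, so their values are a description and carry no test.

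Among the 10 tested genes of mitochondrial transcription, 5 were lower by 1.5-fold in SD70 against DMSO and 2 in the combination against MI-503. TFB2M, which melts the promoter, was at 33.7, 10.4, 25.3 and 13.6 FPKM and fell (limma adjusted p = 0.0245). TFAM, which packages mitochondrial DNA and opens transcription, was at 25, 12.5, 21.7 and 13.5 FPKM and fell (limma adjusted p = 0.0252). POLRMT, the mitochondrial RNA polymerase, was at 36.2, 20.5, 32.4 and 22.3 FPKM and fell (limma adjusted p = 0.0305). In these 3 both libraries with SD70 were below both without. The elongation factor TEFM, at 4.09, 2.57, 3.76 and 2.83 FPKM, did not pass (limma adjusted p = 0.0911). MTERF1, whose site is the capital stretch of MT-TL1 above, was at 4.07, 2.59, 3.64 and 2.26 FPKM, and missed the threshold (limma adjusted p = 0.0557).

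RNA processing and turnover held the largest share of lower genes of the 13 lists in SD70 against DMSO: 15 of 20 were at least 1.5-fold lower, and 9 in the combination against MI-503. PNPT1, the polynucleotide phosphorylase of the mitochondrial degradosome, was at 22.5, 7.50, 16.6 and 7.82 FPKM and fell (limma adjusted p = 0.0224). TRMT10C, a subunit of the RNase P that cuts the 5′ ends of the tRNAs, was at 30.3, 10.7, 23.7 and 10.3 FPKM. SLIRP, at 13.3, 4.59, 9.86 and 5.63 FPKM, fell (limma adjusted p = 0.0259). Its partner LRPPRC, which stabilises mitochondrial mRNAs, was at 56.0, 37.2, 49.5 and 40.3 FPKM, and missed the threshold (limma adjusted p = 0.0681). The partners of 1 complex therefore differed in whether they passed, and the difference between them was not tested.

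**Figure D4:**
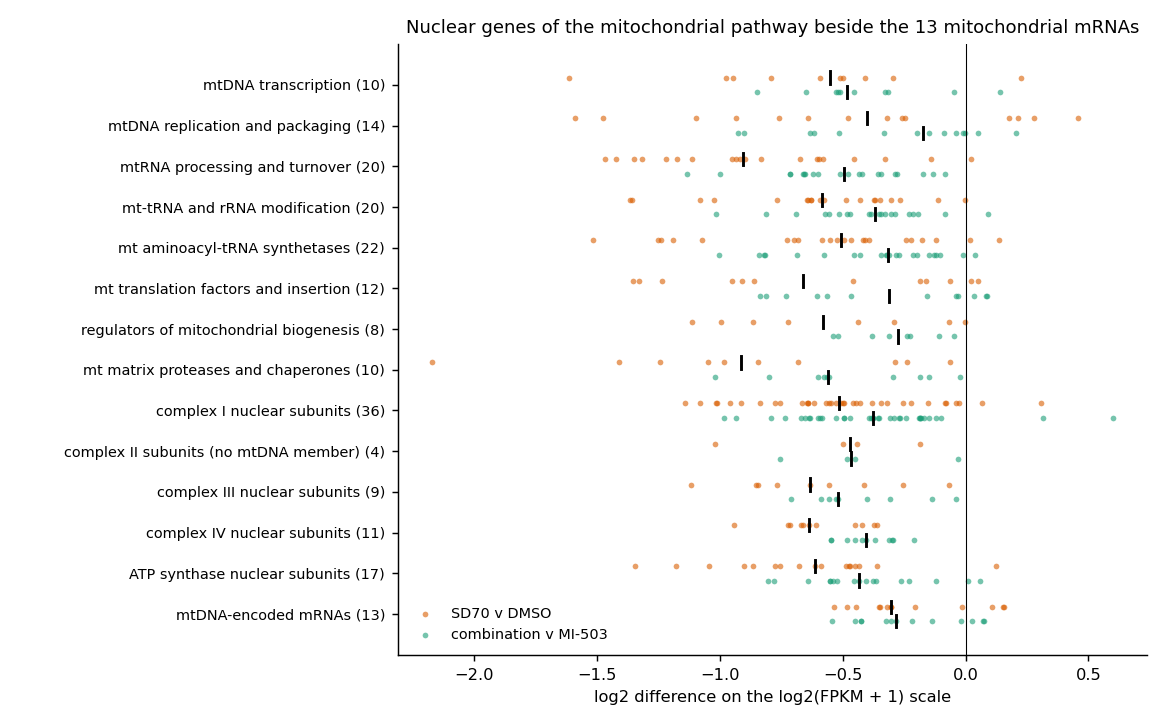
Log2 difference on the log2(FPKM + 1) scale of each tested nuclear gene of the mitochondrial pathway, by list with its number of genes, and of the 13 mitochondrial mRNAs, for the pairs that differ by SD70. Points are genes and black bars medians, which lie below 0 in each list, between -0.40 and -0.91 for SD70 against DMSO.

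In the other lists the counts of genes at least 1.5-fold lower, in SD70 against DMSO and in the combination against MI-503, were 6 and 4 of 14 for replication and packaging, and 10 and 3 of 20 for tRNA and rRNA modification. They were 8 and 5 of 22 for the aminoacyl-tRNA synthetases and 6 and 4 of 12 for translation factors. TWNK, the replicative helicase, was at 19.9, 6.52, 16.6 and 8.45 FPKM, and ATAD3A, a membrane protein linked to the nucleoid, at 36.1, 11.4, 32.6 and 16.7 FPKM. MRM1, which methylates MT-RNR2, was at 15.7, 5.53, 14.8 and 6.82 FPKM. The replication list was nearer to the shares of all genes than the processing list, and 3 of 20 for modification was near 9.21%. The methionine synthetase MARS2 was at 20.9, 8.20, 19.4 and 10.6 FPKM and the elongation factor GFM1 at 11.7, 4.05, 8.69 and 4.42 FPKM. C1QBP, a matrix protein needed for mitochondrial translation, was at 175, 68.0, 153 and 86.4 FPKM.

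Among matrix proteases and chaperones 7 and 3 of 10 were lower. HSPE1, the small chaperonin, was at 33.1, 6.57, 20.4 and 9.55 FPKM and HSPA9, the import chaperone, at 87.7, 32.4, 71.3 and 40.5 FPKM. Of the regulators of biogenesis 4 and 0 of 8 were lower. The nuclear partners of the mitochondrial subunits were lower in 14 and 10 of 36 for complex I, 5 and 2 of 9 for complex III, 7 and 0 of 11 for complex IV and 10 and 3 of 17 for ATP synthase. Complex II, which has no mitochondrially encoded subunit, had 1 and 1 of 4. NDUFS5 of complex I was at 160, 72.1, 148 and 77.0 FPKM and ATP5MC1, which encodes the subunit of the rotor ring of ATP synthase, at 27.6, 10.3, 26.8 and 14.9 FPKM. NDUFA13 of complex I was the 1 listed gene at least 1.5-fold higher in the combination against MI-503, and is named here after its value was seen. The complex II counts are too small to set against the shares of all genes, and no difference between the lists was tested.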

How the data were processed

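RNA sequencing of 4 libraries, 1 per treatment label, was used. Per the submitters' processing notes, BWA, Bowtie and hg38 were involved, with no version or role given; the counter, annotation, kit and strand setting are not given in the sources used here. The authors deposited 1 table per library, and the value is read as FPKM from the values themselves. All 58735 IDs matched GENCODE 29, and FPKM times exon length gave whole reads within 0.01 for all values above 0. The library sizes so implied are those of median-of-ratios scaling.

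Differences were taken on log2(FPKM + 1) for the 12296 genes that averaged 1 FPKM or more, which kept all 37 mitochondrial genes, and were counted at 1.5-fold. Ratios of FPKM without pseudocount carry exact 95% Clopper-Pearson intervals on the reads of 2 libraries, which compare libraries and not conditions. With 1 library per group these pairs have no test. limma 3.58.1 (R 4.3.3) was fitted with 2 terms to all 4 libraries, 2-sided, with Benjamini-Hochberg adjustment and a threshold of 0.05. The residual error of a gene is its departure from additivity, with 1 degree of freedom. It is moderated toward the trend over all genes, with 4.208 prior degrees of freedom. The p-values therefore rest largely on other genes and do not measure the spread between cultures. No count test was used as the main test, and voom on the recovered reads was an alternative. Both procedures were tested on simulated data. Python 3.11.15, scipy 1.17.1 and pandas 2.3.3 were used.

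All mRNAs and rRNAs were named, tRNAs with a mean of at least 20 reads (the other 6 were named after their values were seen), 8 nuclear genes, and the 12 others with the largest difference at least 1.5-fold in both SD70 pairs, of which 1 is not reported here. Members and lists were chosen with earlier results of these data known. Alternatives varied the pseudocount (0.1, 5), filter, fold, scaling and variance model.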

Additional observations from a re-analysis of the deposited data

Results flagged for a closer look

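In 3 transcripts the difference with MI-503 had opposite directions in the absence and the presence of SD70, with the counting intervals of both pairs on opposite sides of 1. Each is given as the log2 ratio in the combination against SD70 minus that in MI-503 against DMSO, and with 1 library per group the difference was not tested. MT-RNR2 was 1.09 times as high in MI-503 as in DMSO and 0.991 times in the combination as in SD70, a difference of -0.14. MT-ND1 was 0.954 and 1.04 times as high, a difference of 0.13. MT-ND3 was 0.950 and 1.07 times as high, a difference of 0.17. All 3 differences are small beside the gap in MT-RNR2 between libraries with and without SD70.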

How the results depend on the processing

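Of 465 recomputed differences of named mitochondrial genes, 447 kept their direction, and the others changed sign only under scaling to equal totals. The number of mitochondrial genes past the fold was 15 in SD70 against DMSO (33.4% of all genes). There it was 8 at 2-fold (12.4%) and 9 with at least 20 reads. It was 3 in MI-503 against DMSO (6.91%), and 1 with at least 20 reads. It was 13 in the combination against DMSO (27.9%), with 6 at 2-fold (8.73%) and 8 with at least 20 reads. It was 15 in the combination against MI-503 (16.8%), with 7 at 2-fold (4.38%). It was 4 in the combination against SD70 (4.76%), with 2 at a pseudocount of 5, 1 at 2-fold (1.8%) and 2 with at least 20 reads. The percentages are shares of all genes tested, in either direction. None is given here for the counts with at least 20 reads or a pseudocount of 5. The median of the 13 mRNAs, with the same read total and then the same nuclear total, went from -0.30 to -0.19 and -0.18 in SD70 against DMSO, from -0.21 to -0.13 and -0.12 in the combination against DMSO and from 0.06 to 0.0243 and 0.0250 in the combination against SD70. It was 0.13 in MI-503 against DMSO with the same nuclear total. The limma count of 21 for SD70 was 0 without trend, 0 without filter and 11 with the same nuclear total. Over all genes it was 2768, against 0, 142 and 1303, with 4630 by voom and, for MI-503, 0 against 8 by voom. As shares of FPKM the mitochondrial genes took 26.6%, 27.3%, 27.6% and 27.2%, and MT-RNR2 to MT-RNR1 by reads was 8.47, 12.9, 9.68 and 14.5. Over 12 mRNAs rho with position was 0.23 (SD70 against DMSO), -0.10 (combination against MI-503), 0.45 (MI-503 against DMSO) and 0.34 (combination against SD70). Which genes pass among the tRNAs is limited by depth, and no replicate shows the spread between cultures. The cause of these shifts was not tested.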

Other observations

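Nuclear copies of mitochondrial DNA were taken by symbol, and how alike their sequences are was not measured. Reads may be shared between them and the mitochondrial genes. Of 417 such genes found by symbol, 71 had at least 1 read in some library and 4 had a mean of at least 20. All copies together held 10052, 7598, 10946 and 8853 reads in the order of libraries used above, or 0.839%, 0.614%, 0.827% and 0.693% of the mitochondrial reads. MTND2P28 at chr1:629640-630683 was at 321, 211, 326 and 246 FPKM, lower in both libraries with SD70, as MT-ND2 was. MTATP6P1 at chr1:633696-634376 was at 404, 308, 429 and 358 FPKM, lower in both libraries with SD70, as MT-ATP6 was. MTCO1P12 at chr1:631074-632616 was at 30.2, 34.8, 38.2 and 40.4 FPKM, lowest in DMSO, as MT-CO1 was. MTND4P12 on chromosome 5 had 14, 12, 43 and 16 reads. Reads of the copies and of the mitochondrial genes cannot be told apart here; positions are from GENCODE 29 (GRCh38).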
